A study of Mus musculus with 8 samples.

Results

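Imprinted genes are expressed mainly from the copy inherited from one parent, and 56 of them, spread over 23 loci, were followed here in 8 RNA-seq libraries of mouse germ cells. They were chosen by name as genes of well-known imprinted loci, and 51 were among the 21950 genes of the count table. *Sgce*, *Usp29*, *Mirg*, *Rtl1* and *Dio3* were not analysed here. The libraries compare primordial germ cell-like cells (PGCLCs), made in culture from pluripotent stem cells, with primordial germ cells (PGCs), the precursors of eggs and sperm in the embryo. The 4 d6PGCLC libraries came from a female BVSC-iPSC line, which was derived from adult fibroblasts and carries the reporters Blimp1-Venus and Stella-ECFP. These cells were sorted for both reporters 6 days after the epiblast-like stage, on day 8 of culture. The 4 E12.5 PGC libraries came from gonads of female C57BL/6J fetuses, sorted for SSEA1 and integrin β3. Each library was a pool of cells from an independent experiment, and poly(A) RNA was sequenced. The d6PGCLC group is a single cell line. The groups differ in the origin of the cells, in the reporter genes, in developmental stage, in culture and in the sort. The parts of these in any difference cannot be told apart.

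At an imprinted locus, DNA methylation set in the egg or in the sperm marks one parental copy, and this mark is kept in the cells of the body through fertilization and development. The marks differ in parental origin. Most are set in the egg, whereas those of the *H19*-*Igf2*, *Dlk1*-*Meg3*, *Rasgrf1* and *Zdbf2* loci are set in the sperm. A few genes carry histone H3K27 methylation from the egg. In the germ line the marks are erased while PGCs migrate to and settle in the gonad, and new ones are laid down later according to the sex of the germ cell. None of the libraries told the parental alleles apart, and DNA methylation was not part of these files, so that each value is the RNA of both alleles together.

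The libraries held between 7991437 and 12024841 counted reads, and 3 counts, the fewest taken as a detectable level here, corresponded to between 0.2495 and 0.3754 CPM, the count of a gene relative to the depth of its library. The first principal component separated the cell types (60.4% of variance), and the second (10.1%) spread the d6PGCLC libraries, with replicate 1 at 53.2 and replicate 4 at -37.3. In E12.5 PGC replicate 4, 99 counts fell on 7 genes of the Y chromosome, and 0 in the other libraries. Without this library, 12 members were higher and 12 lower in d6PGCLCs, against 14 and 12 with all libraries. Of the 12 germ cell markers examined, 6 were higher and 4 lower in d6PGCLCs and 2, *Kit* and *Nanos3*, passed in neither direction. The early genes *Prdm1*, on which the Blimp1-Venus reporter is built, and *Tfap2c* had higher levels in d6PGCLCs (443.9 ± 43.7 against 192 ± 18.1 CPM and 514 ± 52.6 against 327 ± 8.19 CPM, SD, n = 4 each). *Ddx4*, which marks PGCs in the gonad, was at 35.5 ± 6.60 CPM in d6PGCLCs and at 760 ± 92.2 CPM in E12.5 PGCs (log2 fold change of -4.42, adjusted p = 1.287e-15, edgeR quasi-likelihood test). Markers of other cell types were measured beside them. The summed level of 10 gonadal somatic markers was 7.02 to 8.85 CPM in d6PGCLCs and 8.85 to 15.2 CPM in PGCs, and that of 7 blood markers 1.33 to 3.57 and 1.75 to 33.5 CPM. For 9 trophoblast and extraembryonic endoderm markers it was 39.7 to 47.2 and 51.4 to 63.9 CPM, with *Krt7* higher in d6PGCLCs (19.6 against 2.02 CPM) and *Cdx2*, *Hand1*, *Elf5* and *Sox17* lower. For 7 endothelial markers it was 35.6 to 43.4 and 19.5 to 34.8 CPM, with *Cdh5* and *Flt1* higher. Of the gonadal markers 4 were lower in d6PGCLCs (*Wt1*, *Wnt4*, *Fst* and *Gata4*, 0.922 to 1.65 CPM in PGCs, with log2 fold changes from -3.38 to -2.70), whereas *Amh* and *Amhr2* were at or under 3 counts in every library. The globin *Hbb-y* reached 26.0 CPM in E12.5 PGC replicate 2, *Csf1r* was at 1.91 CPM in d6PGCLCs and at 0 in PGCs, and *Ptprc* had at most 1 count in any library. The part of other cells in the differences of the members was not tested.

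Differential expression was tested over all genes of the table (edgeR's quasi-likelihood test with Benjamini-Hochberg adjustment, log2 fold changes given as d6PGCLC over E12.5 PGC). At an adjusted p of at most 0.05, 14 of 51 members were higher in d6PGCLCs, 12 were lower, and 25 passed in neither direction. Over all genes 31.5% passed the same test, 16.1% higher and 15.4% lower. Among the 12397 genes with a mean level above 0.5 CPM the share was 52.4%, with 27.2% higher and 25.2% lower. Over all 51 members it was 51.0%, and over the 45 members above that level 57.8%. *Airn*, *Kcnq1*, *Kcnk9*, *Rasgrf1* and *Dcn* had at most 1 count in any library and could not be assessed at this depth. The median log2 fold change was 0.0108 over the 45 members above 0.5 CPM and 0.0068 over all genes above it.

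Where a log2 fold change of 2 or more in either direction was also required, 4 members were higher and 4 lower. The same rule called 6.62% of all genes, 3.24% higher and 3.37% lower, and 4.49% and 3.98% of those above 0.5 CPM. *H19*, *Peg10*, *Magel2* and *Grb10* were the higher ones, and *Ins2*, *Meg3*, *Rian* and *Plagl1* the lower ones. The libraries of the cell types did not overlap for 11 members that were higher and 13 that were lower in d6PGCLCs, beside 15.4% and 14.8% of all genes (30.2% together). Of the 14 members called higher, *Peg3*, *Mkrn3* and *H13* overlapped, and *Mcts2* was lower in every d6PGCLC library without passing the test. The members together took 0.552 to 0.619% of the counted reads in d6PGCLCs and 0.374 to 0.408% in PGCs. This sum rests on a few abundant members, among them *H19* (1227 against 155 CPM), *Slc38a4* (719 against 232 CPM) and *Peg10* (260.1 against 5.44 CPM).

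**Figure D1:**
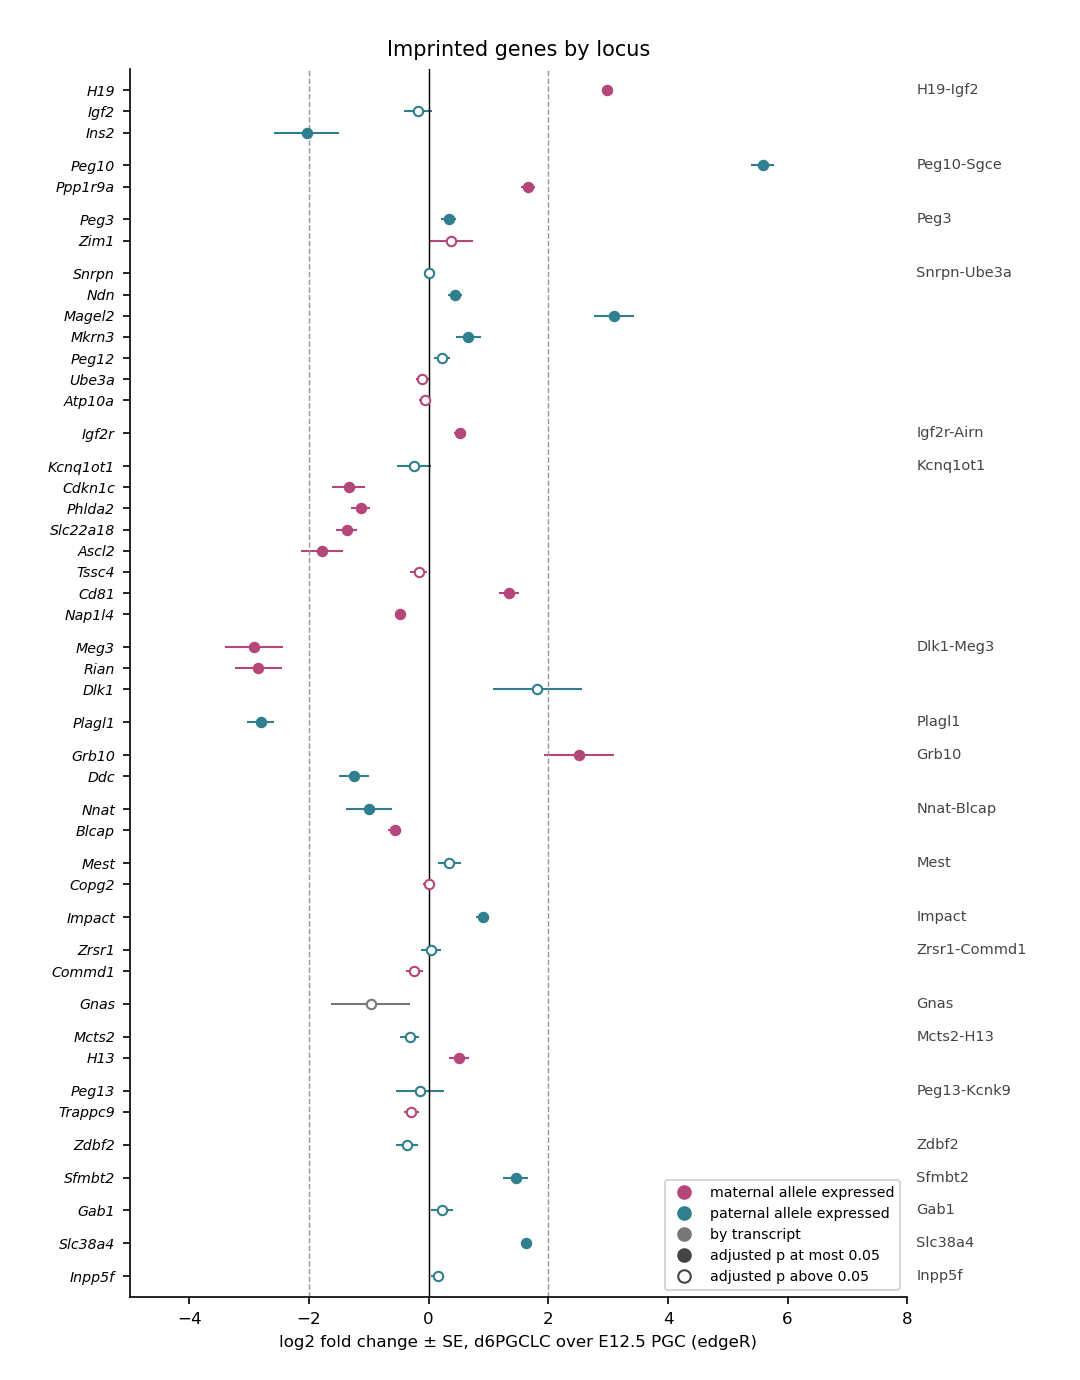
Log2 fold change with its standard error (d6PGCLC over E12.5 PGC, 4 libraries each) for the 46 members with more than 3 counts in some library, grouped by locus, which is named at the right. Colour gives the expressed parental allele, filled points passed an adjusted p of 0.05, and dashed lines mark -2 and 2. *Peg10* at 5.58 and *Meg3* at -2.92 are the extremes.

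Direction was not shared by the genes of one parental allele. Of 24 members expressed from the maternal allele, 6 were higher and 8 lower in d6PGCLCs. Their median log2 fold change was -0.09, or -0.17 among those above 0.5 CPM. Of 26 expressed from the paternal allele, 8 were higher and 4 lower, with a median of 0.10, or 0.19 among those above 0.5 CPM. By germline mark, 11 of 39 members under a mark from the egg were higher and 9 lower, and 1 of 8 under a mark from the sperm was higher and 3 were lower. Over all genes the shares were 16.1% higher and 15.4% lower, and above 0.5 CPM 27.2% and 25.2%. These are counts of genes within shared loci, and the difference between the classes was not tested.

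The *H19*-*Igf2* locus pairs a maternally expressed noncoding RNA with the paternally expressed growth factor IGF2, and CTCF bound to the unmethylated maternal copy directs the shared enhancers to *H19*. *H19* (GRCm38 chr7:142575530-142578146) was at 1188, 1211, 1111 and 1398 CPM in the d6PGCLC libraries and at 152, 167, 154 and 146 CPM in the PGC libraries. All 4 d6PGCLC libraries lay far above all 4 PGC libraries, with means of 1227 ± 122 and 155 ± 8.81 CPM (SD, n = 4) and a fitted fold of 7.93 (log2 fold change of 2.99, SE 0.09, adjusted p = 2.406e-15, edgeR quasi-likelihood test). Per length *H19* led all members in d6PGCLCs, at 494 RPKM (CPM per kilobase of the deposited exonic length), whereas in PGCs, at 62.3 RPKM, it lay below *Phlda2*, *Nap1l4*, *Peg3*, *Commd1* and *Snrpn*.

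*Igf2* did not follow it. Its levels were 25.3, 49.1, 36.0 and 84.7 CPM in d6PGCLCs and 65.5, 52.7, 55.6 and 46.5 CPM in PGCs. The d6PGCLC libraries spanned the PGC range on both sides, and the difference of -0.18 (SE 0.23) gave an adjusted p of 0.71 (edgeR). Without d6PGCLC replicate 4, the library with the highest level, the difference was -0.58 with an adjusted p of 0.013. Of the exonic bases of *Igf2*, 62.8% are shared with another annotated gene of the same strand, so that reads of both cannot be separated there. *Ins2*, one of the mouse insulin genes, had 0, 3, 11 and 5 counts in d6PGCLCs and 23, 13, 18 and 26 in PGCs. It was scarce in both cell types, and lower in d6PGCLCs (log2 fold change of -2.04, SE 0.54, adjusted p = 0.00298, edgeR), or -2.68 without d6PGCLC replicate 3. Lying close to the fold threshold, it fell short of it with a prior count of 2 and without d6PGCLC replicate 1 or 2 or E12.5 PGC replicate 1 or 4.

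*H19* is also the precursor of miR-675, whose both arms lie inside the transcript on the minus strand. The mature sequences from RefSeq (GRCm38.p6) are shown because they are the known small RNA product of the member with the highest level per length in d6PGCLCs, with the seed, bases 2 to 8, in capitals. Mature miRNAs were not measured in these poly(A) libraries. miR-675-3p lies at chr7:142577078-142577099 and miR-675-5p at chr7:142577112-142577133.
miR-675-3p: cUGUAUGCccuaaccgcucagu
miR-675-5p: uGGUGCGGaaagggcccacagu

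At the *Dlk1*-*Meg3* locus the maternal copy expresses the long noncoding RNAs *Meg3* and *Rian*, the latter a host of small nucleolar RNAs, and the paternal copy expresses *Dlk1*, a transmembrane protein of the Notch ligand family. *Meg3* (chr12:109540996-109571729) was at 6.89, 1.53, 0.332 and 0.485 CPM in d6PGCLCs and at 15.6, 22.2, 13.1 and 14.4 CPM in PGCs. *Rian* was at 9.19, 3.26, 1.08 and 0.849 CPM and at 23.1, 27.5, 23.4 and 25.0 CPM. Both RNAs were lower in every d6PGCLC library than in any PGC library, and in both replicate 1 was the highest of the d6PGCLC libraries and replicate 2 the next.

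The fitted log2 fold changes were -2.92 for *Meg3* (SE 0.48, adjusted p = 4.081e-05) and -2.85 for *Rian* (SE 0.39, adjusted p = 5.277e-06, edgeR quasi-likelihood test). Without d6PGCLC replicate 1 they were -4.38 and -3.83. The d6PGCLC libraries differed among themselves by 20.8 times for *Meg3* and by 10.8 times for *Rian*, compared with 1.70 and 1.19 times in PGCs. *Meg3* and *Rian* are thought to be parts of one long transcription unit, and neighbouring counts are therefore not independent. *DQ267101*, whose exons share bases with *Rian*, was also lower in d6PGCLCs (-2.87, adjusted p = 2.31e-05, edgeR).

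*Dlk1* was at 0.894, 5.29, 0.0830 and 14.6 CPM in d6PGCLCs and at 2.75, 1.68, 0.922 and 0.632 CPM in PGCs. The d6PGCLC libraries ranged over 175 times, replicates 2 and 4 lying above and replicate 3 below every PGC library. The difference of 1.82 (SE 0.74) did not pass (adjusted p = 0.0664, edgeR; exact permutation test of the CPM, two-sided p = 0.4, where 0.0286 is the smallest that 4 against 4 can give). It was 0.52 (adjusted p = 0.716) without d6PGCLC replicate 4, the library with the highest level. Without d6PGCLC replicate 3 it passed at 2.25, and also without d6PGCLC replicate 1 (2.15) or E12.5 PGC replicate 1 (2.25), and with the offset for exonic length (1.83, adjusted p = 0.0323).

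Collagen genes and *Postn*, from a list of 9 mesenchyme markers, had the same order as *Dlk1* in their higher d6PGCLC libraries. *Col1a1* was at 0.766, 3.87, 0.249 and 11.8 CPM and *Col3a1* at 1.28, 3.16, 0 and 6.67 CPM in replicates 1 to 4. In the same order, *Col1a2* was at 0.638, 2.04, 0 and 4.73 CPM and *Postn* at 0, 0.407, 0 and 1.33 CPM. For each of these genes, as for *Dlk1*, replicate 4 was the highest and replicate 2 the next. In the PGC libraries the order was not shared by all. There *Dlk1* (2.75 CPM) and *Postn* (0.250 CPM) were highest in replicate 1. *Col1a1*, *Col3a1* and *Col1a2* were highest in PGC replicate 2 (0.421, 2.95 and 1.05 CPM). *Pdgfrb*, at 5.23, 3.67, 3.40 and 6.55 CPM, and *Fn1*, at 1773, 1199, 1314 and 1361 CPM, did not have this order. Nor did the scarce *Pdgfra* and *Twist1*. Over the whole list, 3 were higher and 2 lower in d6PGCLCs. *Col1a1* was past both thresholds as higher, at 4.16 ± 5.31 against 0.205 ± 0.149 CPM (4.24, SE 1.13, adjusted p = 7.193e-04, edgeR). *Pdgfra* and *Twist1* were past both as lower. The summed level was 1213 to 1781 CPM in d6PGCLCs and 926.5 to 1129 CPM in PGCs, mostly from *Fn1* (1412 and 1041 CPM), which many cell types express. *Lum* had few reads in any library (at most 0.305 CPM), with d6PGCLC replicates 2 and 4 the highest. The member *Dcn*, another mesenchymal gene, had at most 1 count. The part of such cells in the *Dlk1* values was not tested, and in bulk RNA fewer cells of a type and less RNA per cell cannot be told apart.

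**Figure D2:**
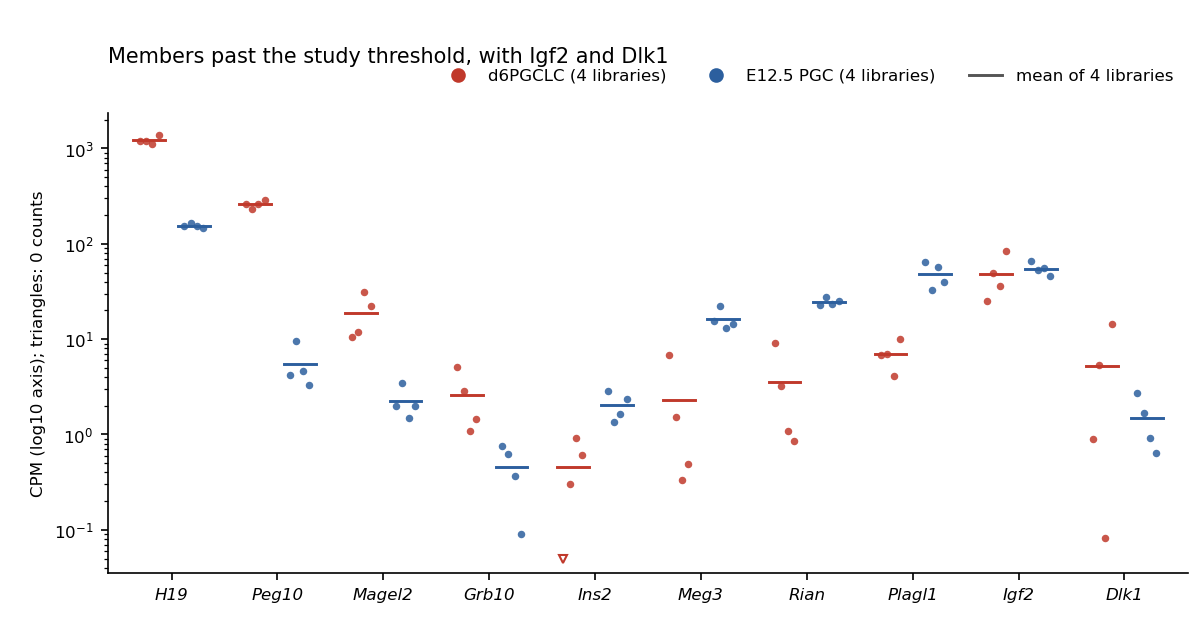
CPM on a log10 axis in each of the 4 d6PGCLC (red) and 4 E12.5 PGC (blue) libraries for the 8 members past both thresholds and for *Igf2* and *Dlk1*. Lines are means and the open triangle marks a library with 0 counts. *H19*, *Peg10*, *Magel2*, *Grb10*, *Ins2*, *Meg3*, *Rian* and *Plagl1* do not overlap between the cell types, whereas *Igf2* and *Dlk1* do.

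*Peg10*, a gene derived from a retrotransposon and required for the placenta, had the highest fold of all members. It was at 259, 231, 262 and 288 CPM in d6PGCLCs and at 4.24, 9.58, 4.61 and 3.34 CPM in PGCs. The lowest d6PGCLC library lay far above the highest PGC library, and the means of 260.1 ± 23.3 and 5.44 ± 2.81 CPM gave a fitted fold of 48.0 (log2 fold change of 5.58, SE 0.20, adjusted p = 1.328e-14, edgeR). *Ppp1r9a*, which encodes the actin-binding scaffold neurabin and is expressed from the opposite allele, was also higher, at 67.8 ± 5.25 against 21.4 ± 1.33 CPM (1.66, SE 0.11). Within 500 kb of these genes, 2 of 7 other genes of the table were higher and 2 lower.

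The *Snrpn*-*Ube3a* locus, whose loss causes Prader-Willi and Angelman syndromes in humans, had 7 members in the table. The MAGE family gene *Magel2* was at 10.6, 11.9, 31.4 and 22.2 CPM in d6PGCLCs and at 2.00, 3.47, 1.48 and 1.99 CPM in PGCs, with a fitted fold of 8.59 (log2 fold change of 3.10, SE 0.33, adjusted p = 1.298e-07, edgeR). Its close neighbours *Ndn*, another MAGE gene, and *Mkrn3*, a ubiquitin ligase gene, were higher by 0.44 (SE 0.12, adjusted p = 0.00610) and 0.66 (SE 0.21, adjusted p = 0.0178). The call for *Mkrn3* was lost without d6PGCLC replicate 3 or without E12.5 PGC replicate 1, 3 or 4 (adjusted p from 0.0510 to 0.0762, edgeR).

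The other genes of this locus did not pass. *Snrpn*, encoding the splicing protein SmN, was at 168, 185, 150.1 and 159 CPM in d6PGCLCs and at 162, 164, 166 and 165 CPM in PGCs. The PGC values were the most uniform of the 45 members above 0.5 CPM, and the difference of 0.01 (SE 0.09) had either sign across settings. Its exons share 27.3% of their bases with others of the same strand, *Snurf* among them. *Ube3a*, the ubiquitin ligase expressed from the maternal allele in neurons, was at 86.4, 71.2, 64.9 and 80.6 CPM in d6PGCLCs and at 90.5, 71.9, 86.3 and 76.8 CPM in PGCs (-0.10, SE 0.11). *Peg12* was at 34.6 ± 5.10 and 29.7 ± 2.76 CPM (0.22) and *Atp10a* at 219.6 ± 20.5 and 230.3 ± 19.5 CPM (-0.07). Of the exonic bases of *Ube3a*, 27.3% overlap genes of the opposite strand, among them *Snhg14*, and the use of strand in counting is not given in the sources used here.

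The zinc finger gene *Peg3* was at 1208, 783, 886.5 and 998 CPM in d6PGCLCs and at 900.0, 588, 828 and 756 CPM in PGCs. The cell types overlapped, and the difference of 0.34 (SE 0.13) lay close to the limit (adjusted p = 0.0457, edgeR). The call was lost without d6PGCLC replicate 1 or 4 or E12.5 PGC replicate 2 or 4, and with 7 of 10 other settings (adjusted p up to 0.0990 over them). *Zim1*, expressed from the opposite allele, was at 3.83, 1.32, 2.49 and 4.24 CPM and at 3.49, 1.58, 2.12 and 1.90 CPM, with no detectable difference (0.38, SE 0.35, adjusted p = 0.539).

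The *Igf2r* locus expresses the receptor that clears IGF2 from the maternal allele and the antisense RNA *Airn* from the paternal one. *Igf2r* was at 725, 567, 579 and 575 CPM in d6PGCLCs and at 449, 398, 459.5 and 397 CPM in PGCs. It was higher in every d6PGCLC library, by 0.52 (SE 0.09, adjusted p = 1.432e-04, edgeR), and by 0.43 to 0.56 when any library was left out. *Airn* had 0 counts in all 8 libraries, on a counted isoform of 724 bp in the deposited table.

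Of the 9 members at the *Kcnq1ot1* locus, 5 were lower in d6PGCLCs, 1 was higher and 3 passed in neither direction, where 15.4% of all genes were lower and 16.1% higher. All of these genes except *Kcnq1ot1*, the long noncoding RNA antisense to *Kcnq1*, are expressed from the maternal allele in the embryo or the placenta. *Kcnq1ot1* was at 5.49, 3.77, 2.41 and 3.39 CPM in d6PGCLCs and at 5.99, 3.16, 3.50 and 5.06 CPM in PGCs. The ranges overlapped (-0.25, SE 0.29, adjusted p = 0.646, edgeR), and the direction turned to 0.28 with the length offset.

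*Cdkn1c*, which encodes the cell cycle inhibitor p57, was at 1.79, 1.73, 3.32 and 3.64 CPM in d6PGCLCs and at 8.36, 7.26, 4.98 and 6.32 CPM in PGCs. It was lower in all d6PGCLC libraries (-1.34, SE 0.28, adjusted p = 5.244e-04, edgeR), although the counted isoform of 673 bp is 35.4% of the longest annotated one and 30.7% of the exonic bases overlap a gene of the other strand. *Phlda2*, a restrainer of placental growth, was at 67.9, 83.2, 150.4 and 99.2 CPM and at 192, 233, 224 and 236 CPM. It had the highest level per length of all members in PGCs (271 RPKM) and its fitted level was 2.20-fold lower in d6PGCLCs (-1.14, SE 0.16, adjusted p = 7.526e-06, edgeR). The transporter gene *Slc22a18* was lower as well, at 6.87 ± 0.909 against 17.9 ± 2.49 CPM (-1.37, SE 0.18). So were the trophoblast transcription factor gene *Ascl2*, at 1.34 ± 0.770 against 4.60 ± 1.13 CPM (-1.79, SE 0.35), and the histone chaperone gene *Nap1l4*, at 307 ± 14.3 against 429 ± 16.3 CPM (-0.48, SE 0.08).

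*Cd81*, a tetraspanin gene that lies between *Ascl2* and *Kcnq1*, went the other way. Its level was 122, 99.4, 65.1 and 65.2 CPM in d6PGCLCs and 29.7, 38.7, 32.5 and 37.1 CPM in PGCs, with a fitted fold of 2.54 (1.34, SE 0.17, adjusted p = 1.365e-06, edgeR). As for *Meg3*, the first and second d6PGCLC libraries were the highest. The neighbouring *Tssc4* was at 24.6 ± 3.23 and 27.6 ± 3.70 CPM and did not pass. Each of the 6 calls at this locus held when any library was left out and under all other settings. Of 22 further genes within 500 kb, 3 were higher and 2 lower.

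**Figure D3:**
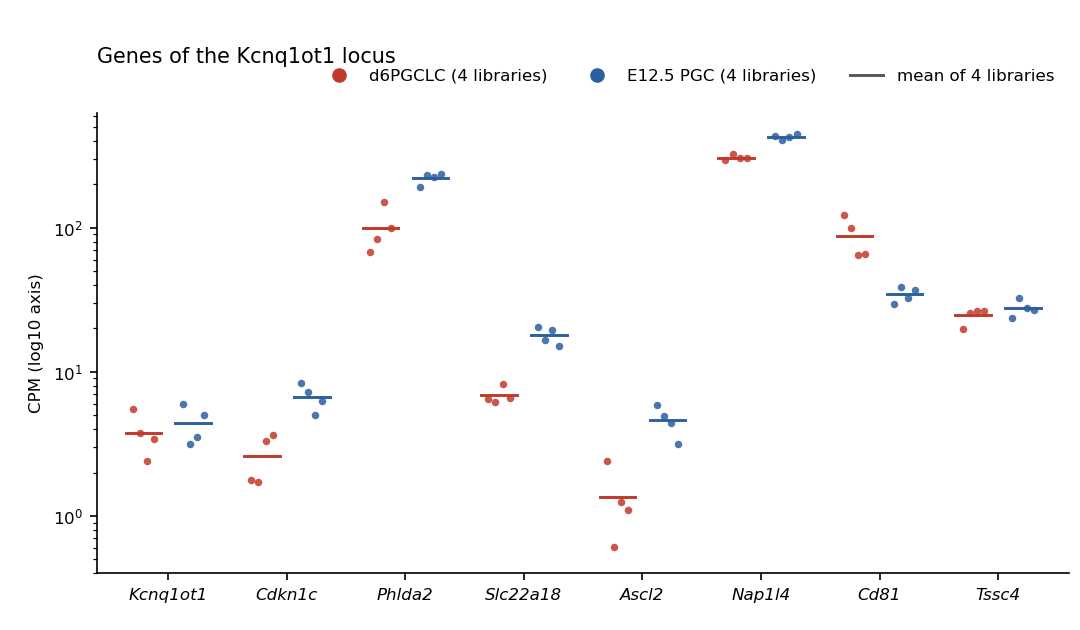
CPM on a log10 axis in each library for the 8 detected genes of the *Kcnq1ot1* locus, with lines at the means of 4 d6PGCLC (red) and 4 E12.5 PGC (blue) libraries. *Cdkn1c*, *Phlda2*, *Slc22a18*, *Ascl2* and *Nap1l4* sit lower in d6PGCLCs, *Cd81* sits higher, and *Kcnq1ot1* and *Tssc4* overlap.

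*Plagl1*, which encodes a zinc finger transcription factor that arrests the cell cycle, was at 6.89, 7.02, 4.15 and 9.94 CPM in d6PGCLCs and at 64.6, 32.6, 56.98 and 39.8 CPM in PGCs. Every d6PGCLC library was below every PGC library, and the fitted level was 7.02-fold lower (-2.81, SE 0.23, adjusted p = 3.634e-09, edgeR). *Grb10*, an adaptor that dampens insulin signalling, had 40, 28, 13 and 12 counts in d6PGCLCs and 6, 6, 4 and 1 in PGCs, or 2.62 ± 1.82 and 0.460 ± 0.293 CPM (SD, n = 4). It was higher in d6PGCLCs (2.51, SE 0.59, adjusted p = 9.245e-04, edgeR), at 1.99 when d6PGCLC replicate 1 was left out. The isoform counted for *Grb10*, 906 bp long, is 17.9% of the longest one, so that the level of the gene as a whole is not given by it. *Ddc*, the dopa decarboxylase gene beside it, was lower, at 3.52 ± 1.56 against 8.44 ± 0.958 CPM (-1.25, SE 0.25, adjusted p = 4.706e-04).

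Promoters of members with marked differences were read from the RefSeq tables (GRCm38.p6) where the window ended at the start of the gene. The 250 bases before the start are shown for *Meg3*, *Plagl1* and *Magel2*, as members past both thresholds, and for *Ascl2* and *Cd81*, as neighbours that moved in opposite directions. Capitals mark TGCCGC on either strand (GCGGCA where the match is on the other strand), the hexamer whose methylated form the imprint protector ZFP57 binds. *Meg3* and *Plagl1* hold 1 each and the others 0. The windows of *Rian* and *Grb10*, also past both thresholds, hold 0 and are not shown.
Meg3 (chr12:109540746-109540995, plus strand): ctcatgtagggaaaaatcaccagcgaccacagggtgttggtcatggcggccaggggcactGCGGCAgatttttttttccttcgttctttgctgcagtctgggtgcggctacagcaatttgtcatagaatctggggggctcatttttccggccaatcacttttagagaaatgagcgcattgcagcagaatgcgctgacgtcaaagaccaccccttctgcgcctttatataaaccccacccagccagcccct
Plagl1 (chr10:13090582-13090831, plus strand): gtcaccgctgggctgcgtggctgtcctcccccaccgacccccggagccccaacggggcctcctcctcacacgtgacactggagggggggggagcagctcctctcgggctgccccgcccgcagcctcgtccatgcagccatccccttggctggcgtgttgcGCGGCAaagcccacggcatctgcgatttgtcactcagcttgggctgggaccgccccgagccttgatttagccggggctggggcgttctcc
Magel2 (chr7:62376729-62376978, plus strand): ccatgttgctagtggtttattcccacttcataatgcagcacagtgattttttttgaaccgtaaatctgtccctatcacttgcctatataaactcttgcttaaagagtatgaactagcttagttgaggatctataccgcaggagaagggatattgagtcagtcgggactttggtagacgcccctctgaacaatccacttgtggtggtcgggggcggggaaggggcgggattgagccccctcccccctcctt
Ascl2 (chr7:142969265-142969514, minus strand): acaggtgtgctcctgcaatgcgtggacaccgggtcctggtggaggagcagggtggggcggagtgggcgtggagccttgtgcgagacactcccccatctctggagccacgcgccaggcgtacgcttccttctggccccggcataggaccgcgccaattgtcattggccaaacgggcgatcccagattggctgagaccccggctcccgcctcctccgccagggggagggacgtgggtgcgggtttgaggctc
Cd81 (chr7:143052500-143052749, plus strand): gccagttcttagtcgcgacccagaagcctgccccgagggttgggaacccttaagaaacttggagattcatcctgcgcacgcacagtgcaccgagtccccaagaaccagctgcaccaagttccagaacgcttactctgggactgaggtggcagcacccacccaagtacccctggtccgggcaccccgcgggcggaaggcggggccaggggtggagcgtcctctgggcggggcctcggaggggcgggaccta

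A promoter was found for 40 of the 51 members, and 6 of them (15.0%) held the hexamer in these 250 bases, compared with 8.6% of 27025 RefSeq genes. Besides *Meg3* and *Plagl1* these were *Copg2*, *Mcts2*, *Zim1* and *Zdbf2*, the last with 3 matches. None of these passed the test with all libraries (log2 fold changes of 0.01, -0.32, 0.38 and -0.36). The median number of CpG sites was 11.5 in the members and 6 in all genes. The *Meg3* window has 10 CpG sites and that of *Plagl1* 19. For *Magel2* there were 7, for *Ascl2* 19 and for *Cd81* 16. A match is a run of letters and not a bound site, and most germline marks lie outside such windows.

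At the remaining loci, neighbours on opposite alleles were read side by side. *Nnat*, a proteolipid gene whose host intron lies in *Blcap*, was at 0.894, 0.814, 1.16 and 0.970 CPM in d6PGCLCs and at 1.75, 3.05, 1.66 and 1.35 CPM in PGCs (-0.996, SE 0.38, adjusted p = 0.0467, edgeR). This call was lost without any 1 of 7 libraries, E12.5 PGC replicate 4 being the exception (adjusted p from 0.0543 to 0.214 where lost). *Blcap* was at 43.7, 42.5, 44.1 and 40.1 CPM and at 71.0, 56.1, 64.1 and 61.7 CPM, lower in d6PGCLCs by 0.57 (SE 0.11, adjusted p = 2.861e-04). *H13*, the signal peptide peptidase gene, was at 16.0, 19.8, 21.7 and 24.2 CPM in d6PGCLCs and at 13.9, 15.1, 11.9 and 16.5 CPM in PGCs (0.51, SE 0.16, adjusted p = 0.0197). This call was lost without d6PGCLC replicate 3 or 4 or E12.5 PGC replicate 3. *Mcts2*, a retrogene inside *H13*, was at 9.70, 11.8, 12.6 and 11.3 CPM and at 13.6, 15.4, 13.3 and 14.6 CPM (-0.32, adjusted p = 0.153).

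The *Mest* and *Zrsr1* loci did not pass in any member. *Mest*, a hydrolase gene, was at 43.4, 49.3, 20.7 and 30.3 CPM in d6PGCLCs and at 28.7, 32.2, 25.1 and 26.8 CPM in PGCs. *Copg2*, a coatomer subunit gene that overlaps its end, was at 298, 281, 225 and 259 CPM and at 295, 228, 273 and 259 CPM. Neither passed the test (0.35 and 0.01), although *Mest* did without d6PGCLC replicate 3 (0.54, adjusted p = 0.0137, edgeR), and 23.1% of the exonic bases of *Mest* are shared with *Copg2* on the other strand. *Zrsr1*, a splicing factor retrogene, was at 16.2, 14.0, 16.4 and 11.5 CPM and at 13.2, 12.8, 16.6 and 13.7 CPM. Its host gene *Commd1* was at 44.8, 78.9, 65.0 and 64.6 CPM and at 61.5, 74.7, 79.1 and 83.9 CPM. Their differences were 0.04 (SE 0.17) and -0.24 (SE 0.14).

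**Figure D4:**
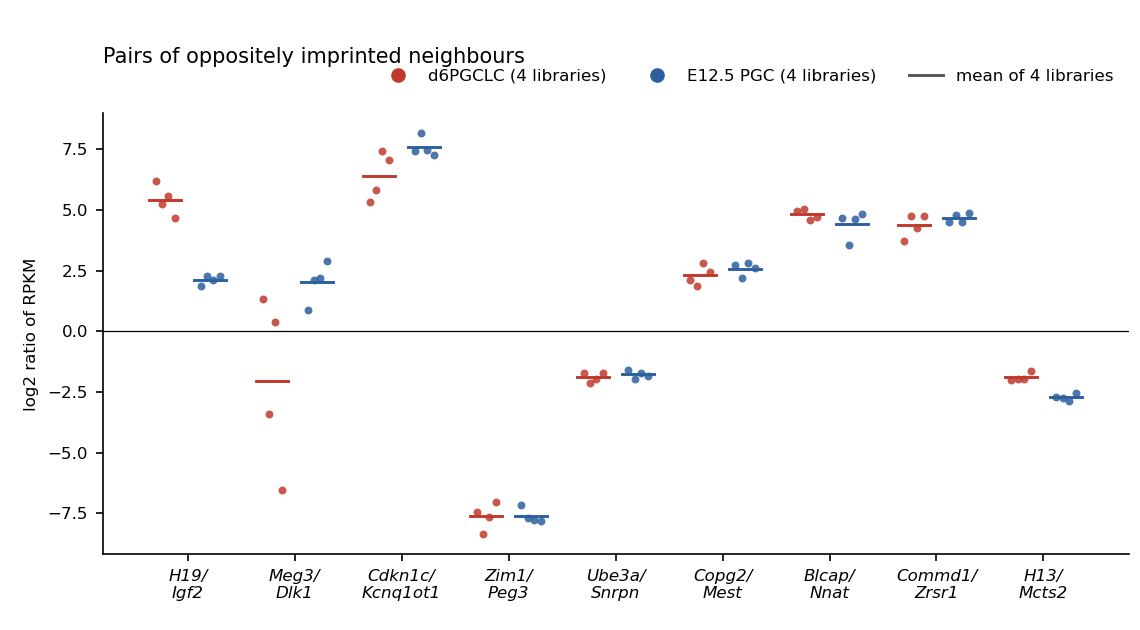
Log2 ratio of RPKM of a maternally expressed gene to its paternally expressed neighbour in each of the 4 d6PGCLC (red) and 4 E12.5 PGC (blue) libraries, with lines at the means. *H19*/*Igf2* and *H13*/*Mcts2* do not overlap between the cell types, and *Meg3*/*Dlk1* spreads from -6.53 to 1.33 among the d6PGCLC libraries.

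As log2 ratios of RPKM, the balance of the maternally to the paternally expressed gene moved clearly at *H19*/*Igf2*, from 1.85 to 2.30 in the PGC libraries to 4.68 to 6.19 in the d6PGCLC libraries. *H13*/*Mcts2* was at -2.88 to -2.55 and -2.01 to -1.62. *Meg3*/*Dlk1* was at 0.88 to 2.88 in PGCs and at 1.33, -3.42, 0.38 and -6.53 in d6PGCLC replicates 1 to 4, so that *Dlk1* exceeded *Meg3* per length in replicates 2 and 4. For the other 6 pairs the ranges overlapped, with differences of the means between -1.17 (*Cdkn1c*/*Kcnq1ot1*) and 0.40 (*Blcap*/*Nnat*). The ratio of *Igf2r* to *Airn* could not be formed, as *Airn* had no counts. The padding in the deposited exonic lengths enters these ratios equally in all libraries.

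Among 3 genes grouped here under H3K27 methylation from the egg, 2 were higher in d6PGCLCs, where 27.2% of all genes above 0.5 CPM were. The amino acid transporter gene *Slc38a4* was at 719 ± 92.2 against 232 ± 12.1 CPM (1.63, SE 0.09, adjusted p = 2.232e-11, edgeR), and *Sfmbt2*, a Polycomb-related gene, at 29.0 ± 10.6 against 10.6 ± 1.36 CPM (1.45, SE 0.21, adjusted p = 1.032e-05). The counted isoform of *Sfmbt2* is 28.4% of the longest. *Gab1*, a docking adaptor gene, was at 121, 109.8, 62.4 and 53.9 CPM in d6PGCLCs and at 74.2 ± 5.07 CPM in PGCs, so that d6PGCLC replicates 1 and 2 lay above and replicates 3 and 4 below the PGC libraries. *Slc38a4* was the member with the second highest level per length in d6PGCLCs, at 159.5 RPKM.

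*Impact*, a regulator of translation, was higher in d6PGCLCs at 124 ± 22.1 against 66.6 ± 2.98 CPM (0.90, SE 0.11, adjusted p = 1.633e-06, edgeR). *Zdbf2* was at 26.7 ± 10.1 and 34.1 ± 5.73 CPM (-0.36, SE 0.19, adjusted p = 0.177) and passed only when the replicate number entered the fit or without d6PGCLC replicate 1 (-0.65, adjusted p = 4.713e-04). *Gnas*, encoding the stimulatory G protein subunit, had 1 to 7 counts per library (0.271 ± 0.232 and 0.533 ± 0.126 CPM). Of its exonic bases 22.0% are shared with genes of the opposite strand. Only 1 isoform, of 2811 bp, was counted where 24 transcripts are annotated, so that the level of the gene as a whole is not given by it. *Trappc9* (55.5 ± 7.91 and 67.9 ± 7.94 CPM), *Peg13* (1.45 ± 0.732 and 1.62 ± 0.590 CPM) and *Inpp5f* (63.9 ± 2.36 and 57.7 ± 4.55 CPM) did not pass, with log2 fold changes between -0.29 and 0.15. *Trappc9* passed without d6PGCLC replicate 1 (-0.39, adjusted p = 0.00698, edgeR) or E12.5 PGC replicate 2 (-0.36, adjusted p = 0.0338).

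The spread between libraries was wider in d6PGCLCs. Over the 45 members with a mean above 0.5 CPM, the median coefficient of variation was 17.8% in d6PGCLCs and 12.1% in PGCs. *Meg3* (134%), *Dlk1* (128%), *Rian* (108%), *Ins2* (86.0%) and *Grb10* (69.5%) varied most among the d6PGCLC libraries. In PGCs *Grb10* (63.7%) and *Dlk1* (63.1%) varied most and *Rian* was among the steadier genes (8.08%).

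The genes that write, keep and remove imprints were read from a list of 18, of which 17 were in the table. Of these, 4 were higher, 4 lower and 9 passed in neither direction, so that 47.1% passed, beside 31.5% of all genes and 52.4% of those above 0.5 CPM. The maintenance methyltransferase gene *Dnmt1* was at 1117 ± 100.3 and 1181 ± 142 CPM (-0.08, adjusted p = 0.659, edgeR), and its partner *Uhrf1* at 62.6 ± 13.9 and 47.8 ± 11.8 CPM (0.39, adjusted p = 0.0713). *Uhrf1* passed without d6PGCLC replicate 4 (adjusted p = 0.0432) or E12.5 PGC replicate 1 (0.00839) and with the length offset (0.0418). *Trim28*, the cofactor of the imprint-protecting zinc finger proteins, was at 2594 ± 63.1 and 2656 ± 92.5 CPM. *Zfp445* was at 117 ± 17.1 and 100.4 ± 5.65 CPM and did not pass (adjusted p = 0.131), except without d6PGCLC replicate 1 (0.0306) or with the length offset (0.0168). *Zfp57* was low in both, at 3.94 ± 1.35 and 1.85 ± 0.679 CPM, and higher in d6PGCLCs by 1.09 (SE 0.33, adjusted p = 0.0139). Without E12.5 PGC replicate 4 that adjusted p was 0.0630.

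*Dppa3*, which shields marks in the early embryo and whose promoter drives the Stella-ECFP reporter used in the sort of d6PGCLCs, was at 691 ± 118 and 384 ± 42.5 CPM (0.85, SE 0.11). Of the de novo methyltransferase genes, *Dnmt3a* was lower in d6PGCLCs, at 65.9 ± 16.3 against 138 ± 9.39 CPM (-1.06, SE 0.13, adjusted p = 1.668e-06, edgeR), and *Dnmt3b* higher, at 20.4 ± 6.16 against 10.6 ± 1.92 CPM (0.94, SE 0.20, adjusted p = 8.793e-04). Their cofactor *Dnmt3l* had 23 counts over the d6PGCLC libraries and 4 over the PGC libraries, a ratio of 5.84 per counted read (exact 95% interval of 2.00 to 23.2, for counting error only). It was the regulator past both thresholds (adjusted p = 0.0231), at a log2 fold change of 2.44, which was 3.75 without E12.5 PGC replicate 2 and 1.402 with a prior count of 2, and its call was lost without d6PGCLC replicate 1 or E12.5 PGC replicate 3 or 4. The dioxygenase genes *Tet1* (565 ± 112 and 476 ± 62.1 CPM) and *Tet2* (51.0 ± 10.9 and 57.5 ± 6.06 CPM), which take part in erasure, did not pass, although *Tet2* did without d6PGCLC replicate 1 (-0.33) and *Tet1* with the length offset (0.53). *Setdb1*, *Kdm1b* and *Smchd1*, which also bear on imprints, were lower by 0.78, 0.76 and 0.44.

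**Figure D5:**
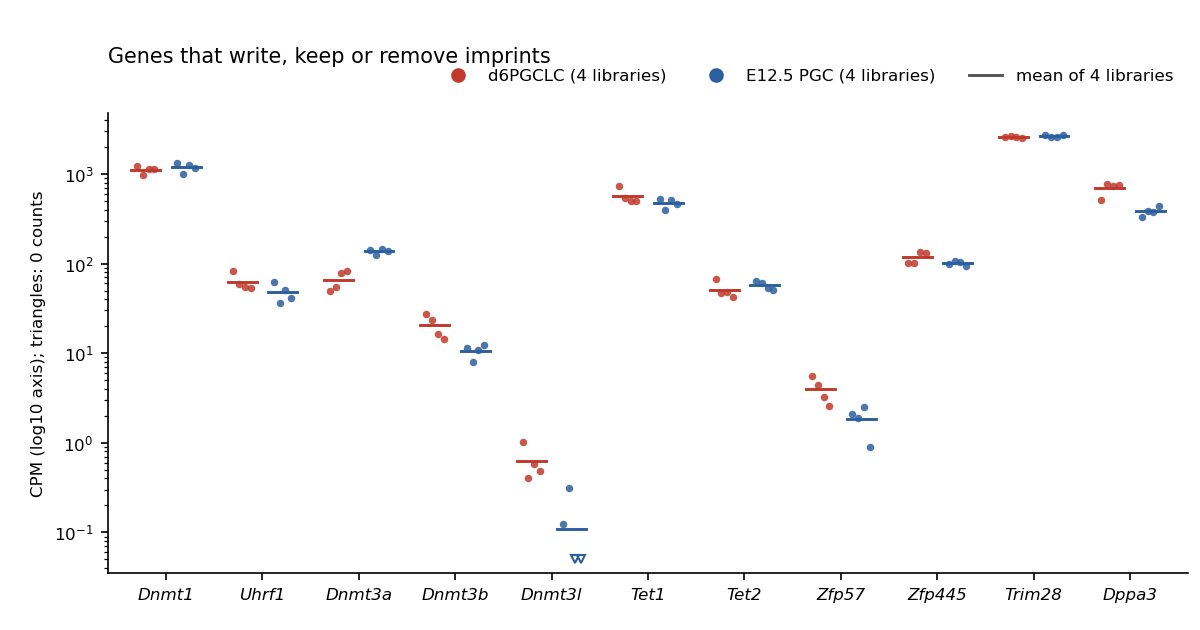
CPM on a log10 axis in each library for 11 genes that write, keep or remove imprints, with lines at the means of 4 d6PGCLC (red) and 4 E12.5 PGC (blue) libraries and open triangles at 0 counts. *Dnmt3a* sits lower and *Dppa3* and *Dnmt3b* higher in every d6PGCLC library, whereas *Dnmt1* and *Trim28* overlap.

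A further list held 36 imprinted genes outside the members, 30 of them in the table, of which 5 were higher and 10 lower in d6PGCLCs (16.1% and 15.4% of all genes), with a median log2 fold change of -0.41. *Adam23*, a membrane protein gene, was higher, at 21.8, 17.6, 11.0 and 10.2 CPM against 5.37, 0.842, 0.922 and 0.903 CPM (3.00, SE 0.42, adjusted p = 5.554e-06, edgeR), or 4.07 without E12.5 PGC replicate 1. *Asb4*, near *Peg10*, was lower, at 7.01 ± 1.77 against 29.7 ± 3.26 CPM (-2.09, SE 0.17), and so was *Phactr2*, near *Plagl1*, at 3.08 ± 0.969 against 13.3 ± 3.45 CPM (-2.13, SE 0.25). *Nap1l5* had 4 counts over the d6PGCLC libraries and 76 over the PGC libraries, a ratio of 18.7 in favour of PGCs (exact 95% interval of 7.01 to 70.4). Its fitted log2 fold change was -4.05, or -4.64 without d6PGCLC replicate 1 and -2.78 with a prior count of 2. For *Pde10a* there were 5 and 35 counts, a ratio of 6.89 (exact 95% interval of 2.69 to 22.5), with a fitted log2 fold change of -2.65, or -1.70 with a prior count of 2.

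Genes beside the loci were counted to see how far the differences reached. Of 298 other genes of the table within 500 kb of a locus, the further imprinted genes above included, 40 were higher and 48 lower, or 29.5%, beside 31.5% of all genes. Past both thresholds 5 were higher and 12 lower, *Adam23*, *Asb4* and *Phactr2* among them, beside 3.24% and 3.37% of all genes. Near *Plagl1*, *Fuca2* was higher by 2.55 while *Plagl1* was lower, and near *Grb10*, *Ikzf1* was lower by 3.83 while *Grb10* was higher. *Dusp8*, near *H19*, was lower by 3.49.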

How the data were processed

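For each of the 8 libraries the authors deposited counts, not normalized, of reads that mapped once to the exons of a gene. They aligned single-end reads to GRCm38 with STAR, took 1 isoform per gene at random, and resolved overlapping promoters by removing genes at random. Some members were counted on a short isoform. The deposited exonic lengths, used here for RPKM, matched annotated transcripts best with 40 bases added per exon (5175 of 21324 genes compared). RefSeq symbols were found for 21907 identifiers, and 43 had none.

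TMM scaling was followed by a quasi-likelihood fit in edgeR 4.0.16 under R 4.3.3, without a filter on low counts, in which the cell types were the sole covariate and the prior count was 0.125. Benjamini-Hochberg adjustment was over all 21950 genes. CPM use TMM-scaled library sizes, SD is over 4 libraries, and intervals and detection limits cover counting error only. Other settings tried were edgeR's likelihood ratio test, DESeq2 1.42.0, plain library sizes, RLE size factors, upper quartile scaling, 2 low-count filters (filterByExpr, or CPM over 1 in 3 or more libraries), a larger prior count (2), a block for replicate number, a loess offset for exonic length (span 0.5) and leaving out each library. On simulated counts 200 of 200 changed genes were called, and 0 of 21750 unchanged genes passed both thresholds (7 at the adjusted p alone). The changed genes had a mean of at least 50 counts and differences beyond the fold threshold, and all genes were given the same spread. The simulation therefore does not cover scarce members such as *Ins2* and *Grb10*, or variable ones such as *Meg3*.

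The members and gene lists were chosen with earlier results of these data known. Values in every library are given for members past both thresholds and for the pairs of neighbours whose ratio was formed. They are also given for *Igf2r* and *Airn*, whose ratio could not be formed. The other members are given by mean, count or range, except *Phlda2*, *Cd81* and *Gab1*, which were chosen for values by library after these were seen. Regulators and other imprinted genes are named where past both thresholds, with the better known regulators, and cell type markers and neighbours were picked after their values were seen. 1 gene of the blood marker list was left out and is not reported here.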

Additional observations from a re-analysis of the deposited data

Results flagged for a closer look

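Among the members above 0.5 CPM, 5 of 90 sets of 4 libraries held a library apart from the other 3 by Dixon's test at 95%, where chance gives about 4.5. *Mkrn3* was at 9.576 CPM in E12.5 PGC replicate 2 and at 5.53 to 6.14 CPM in the other PGC libraries. *Igf2r* was at 724.5 CPM in d6PGCLC replicate 1 (567 to 579 in the others). *Tssc4* was at 19.78 CPM in d6PGCLC replicate 1 (25.8 to 26.6). *Zdbf2* was at 41.74 CPM in d6PGCLC replicate 1 (21.2 to 22.7). *Slc22a18* was at 8.214 CPM in d6PGCLC replicate 3 (6.21 to 6.55). Of these, *Mkrn3* and *Zdbf2* are members whose calls moved when single libraries were left out.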

How the results depend on the processing

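Over 10 other settings and 8 fits without 1 library, 12 to 15 members were higher and 11 to 13 lower, and 4 to 5 and 3 to 4 of them also passed the fold threshold. The median log2 fold change of genes above 0.5 CPM stayed between -0.0317 and 0.0086. Beside the block, *Peg3* was lost under 7 settings, *Nnat* under DESeq2, *Trappc9* was gained under 5 and *Dlk1* with the length offset. Without d6PGCLC replicate 1, *Ascl2* and *Dlk1* entered and *Ins2* and *Grb10* left the members past the fold threshold. *Ins2*, *Grb10*, *Gnas* and *Nnat* had low counts, whose cause was not tested.

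With the length offset, 7 imprint regulators were higher instead of 4, and 2 to 5 when a library was left out. Other imprinted genes that were higher numbered 3 to 5 when a library was left out. The sign of values near 0 turned as follows. *Igf2* ran from -0.5757 to 0.032 when single libraries were left out. *Snrpn* was at -0.0016 with DESeq2, -0.0252 with library size only, -0.0013 with RLE, -0.0288 with upper quartile, -0.0045 with the CPM filter, -0.0067 with filterByExpr, -0.0492 with the length offset and -0.0509 to 0.0519 when a library was left out. *Copg2* was at -0.0011, -0.0242, -0.0011, -0.0288, -0.0038 and -0.006 under the same first 6 settings and at -0.0505 to 0.0801 when a library was left out. The length offset gave 0.0253 for *Atp10a*, 0.2833 for *Kcnq1ot1*, 0.0352 for *Dnmt1* and 0.0167 for *Tet2*. Leaving out a library gave -0.0279 to 0.1336 for *Zrsr1* and -0.4024 to 0.1448 for *Peg13*. The causes were not tested.

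With a block for replicate number, 14 members were higher and 13 lower (*Nnat* lost, *Trappc9* and *Zdbf2* gained), 6 regulators were higher (*Tet1* and *Uhrf1* gained), and *Dlk1* was at 1.19 instead of 1.82, not past the test. The numbers do not pair the libraries: same-numbered deviations correlated across 12397 genes at 0.211, 0.075, -0.0139 and 0.0114, and only numbers 1 and 4 correlated best with their own.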
